A study of Hydra vulgaris with 32 samples.

Results

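A set of 47 loci of the freshwater polyp Hydra, out of 14792 with a normalized signal, was higher after each of 3 treatments that deplete fast cycling cells and differed less from untreated polyps early in the hydroxyurea time course. The members were selected on measured values. Their mean signal had to be at least 130, and at least 2 times that of control day 11, after hydroxyurea on day 11, after heat shock and after colchicine. On hydroxyurea day 4 it had to be under 1.8 times that of control day 4. A locus is the authors' grouping of assembled sequences under 1 loc number, and its signal is the sum over its sequences. The signal is the read count multiplied by 1 constant per library, and it is not scaled by sequence length, so levels are compared between libraries, and a locus with a high signal need not have many transcripts.

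All groups came from the strain Sf-1, a thermosensitive mutant, and only central body columns were sequenced. Hydroxyurea stalls DNA replication. Polyps were exposed to a 10 mM solution for 3 spells of 24 h and taken 4, 5, 7 and 11 days after the treatment began, with 3 libraries a day. Heat shock was 62 h at 28 °C (4 libraries). Colchicine, a microtubule poison that arrests mitosis, was applied for 8 h at 0.4% (3 libraries). Both were sampled on day 9, when the polyps had starved for 11 days. Untreated controls of the same strain comprised 4 libraries for day 11 and 3 for each earlier day, 4, 5 and 7. In the control and hydroxyurea groups the days of starvation equal the sampling day. Control day 11 thus matches the heat shock and colchicine polyps in days of starvation, though not in sampling day. The labels name no separate cultures, so the p-values measure the spread between these libraries, which may be technical.

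The body column of Hydra is built from epidermal and gastrodermal epithelial stem cells, which are also the working tissue layers, and from interstitial stem cells between them. Interstitial stem cells cycle faster than epithelial ones and give rise to nerve cells, nematocytes, gland cells and germ cells. In Sf-1 they are lost at a restrictive temperature, and hydroxyurea and colchicine remove them by other routes, which leaves polyps made largely of epithelial cells. The members carry only the authors' identifiers, and 0 of these matched a table of 28925 annotated Hydra genes, so no gene name, cell type marker, sequence or function can be given for a locus. In bulk RNA, more cells of a type and more RNA per cell cannot be told apart.

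Library totals were 23.6 to 36.6 M counts in 30 libraries, while colchicine replicates B and C had 15.2 and 13.1 M and detected 38573 and 28726 sequences. A single locus that is no member, loc01654, took 0.601% to 15.6% of the counts in treated libraries and 0.486% to 17.3% in controls. The 47 loci together took 0.440% to 1.07% of the counts in the 19 treated libraries and 0.260% to 0.371% in the 13 control libraries, without overlap. The selection itself favours this gap in the late groups that it used. Between 60.1% and 66.6% of their summed signal came from only 3 of them, loc07724, loc14436 and loc24990. The counts of a member in a library ranged from 0, for loc10849 in control day 11 B, to 63067.

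The 3 members with the highest signal had late ratios to control day 11 of 2.09 to 4.35. Locus loc07724 had a signal of 36382, 43072 and 44806 in hydroxyurea day 11 libraries, 47763, 35338, 41745 and 38236 after heat shock and 49324, 68335 and 103259 after colchicine, against 17309.7, 21882, 20461 and 19647 in control day 11 libraries. On day 4 it had 31751, 34049.7 and 33849 after hydroxyurea and 19556, 21727 and 21883 in controls. All treated libraries of this locus lay above all controls on both days, and the highest was colchicine replicate C. Locus loc14436 had 33338, 41773 and 39793 on hydroxyurea day 11, 42779, 29605, 38532 and 33306 after heat shock and 38414, 62202 and 82782 after colchicine, against 11855, 16278, 15485 and 12656 in the day 11 controls. Locus loc24990 had 39947, 41298 and 43420.4 on hydroxyurea day 11, 39618, 35118, 36854 and 42998 after heat shock and 24747, 36922 and 75514 after colchicine, against 18823, 20265, 15521 and 16235 in the same controls. For both loci no late treated library reached down to a control, and colchicine replicates spread more widely than those of the other treatments.

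**Figure D1:**
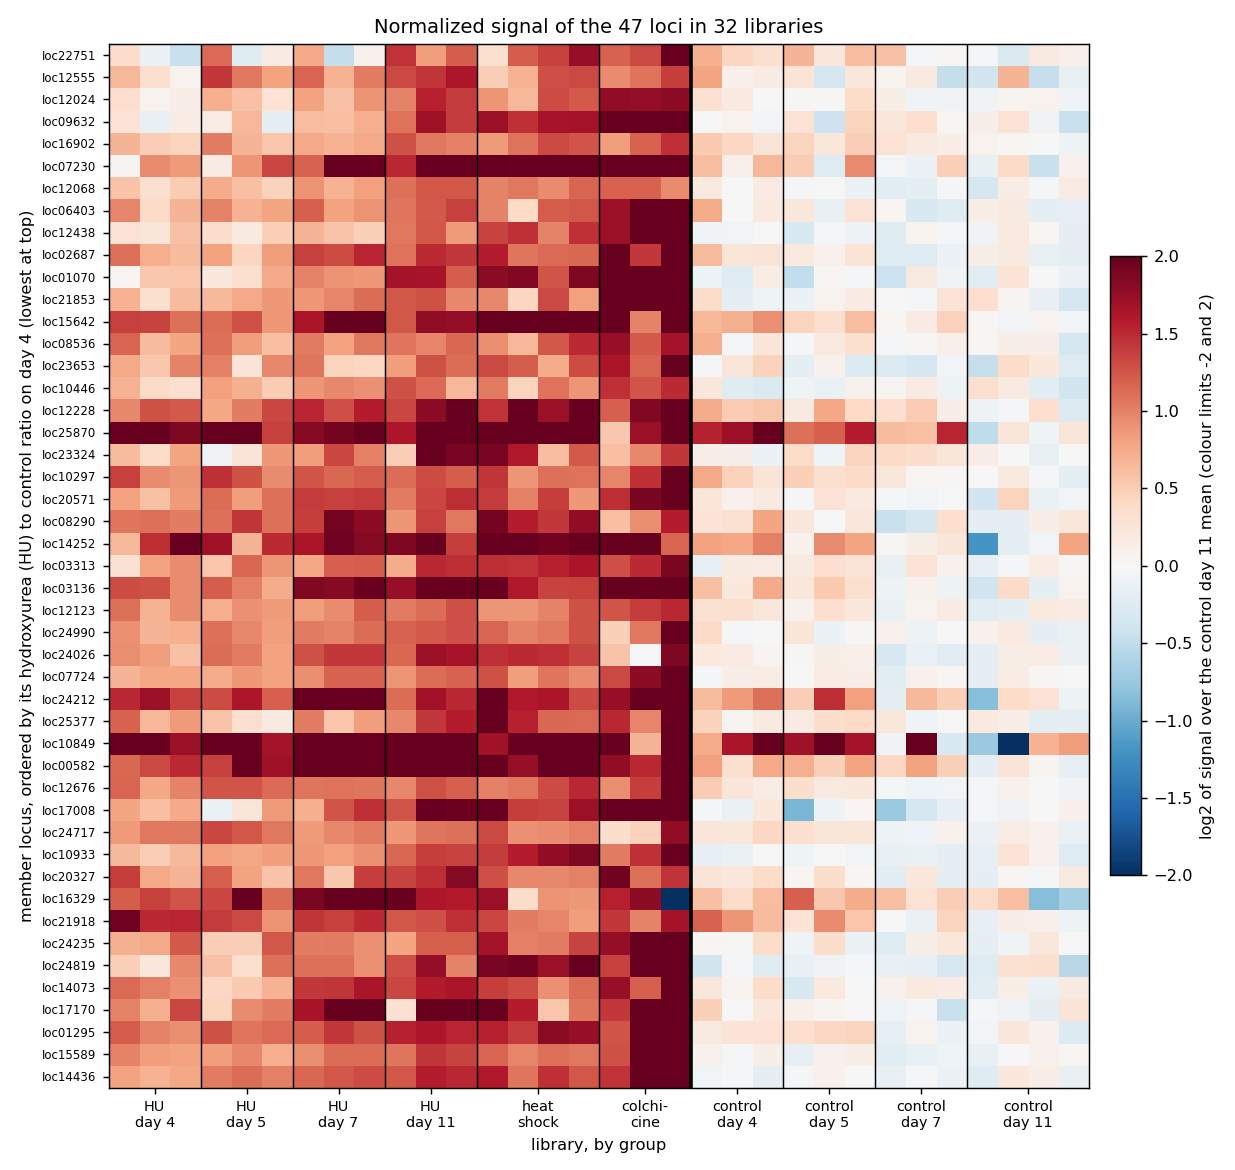
Normalized signal of the 47 loci (rows) in the 32 libraries (columns), as log2 of the ratio to the control day 11 mean of the locus; red is higher and blue lower, colours end at -2 and 2, and the thick line parts the 19 treated libraries (left) from the 13 controls (right). The red deepens from hydroxyurea (HU) day 4 to day 11, where the library medians of the ratio are 2.23, 2.77 and 2.65, and colchicine replicate C is the deepest at 4.47.

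The limits cut through a continuum, and many members sat close to them. Of the 47 loci, 19 lay within 10% of the late limit of 2 and 10 within 10% of the day 4 limit of 1.8. The member nearest to the late limit was loc10446, with a smallest late ratio of 2.006, and loc07703 was left out at 1.986. The nearest to the day 4 limit was loc14436 at 1.795, and loc24854 was left out at 1.811. Locus loc17008 was kept with a lowest late mean of 138, whereas loc14090 fell short at 124. A further 185 loci met the late limits but had at least 1.8 times the control signal on day 4, and they serve below as the earlier loci.

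A delayed difference, as the name of the set has it, was a matter of degree. On day 4 the hydroxyurea mean was already above the control mean in 45 of the 47 loci and at least 1.5 times as high in 27. It was 1.2 to 1.5 times as high in 14, and under 1.2 times in 6. The selection used day 4, and these day 4 counts were not taken over all loci. The 2 members at or below control on day 4 were loc22751, at 0.694 times, and loc12555, at 0.996 times. The median ratio was 1.56 on day 4 and 2.53 on day 11, both fixed in part by the selection. Between these days, in libraries that the selection did not use, it was 1.62 on day 5 and 2.19 on day 7. In 25 loci the ratio was higher on each later day, in 40 it was highest on day 11 and in 7 on day 7. The limits exclude day 4 as the highest and favour day 11, and these counts were not taken over all loci. Over all loci of the table the median ratio was 0.993, 0.998, 0.999 and 0.973 on the 4 days.

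**Figure D2:**
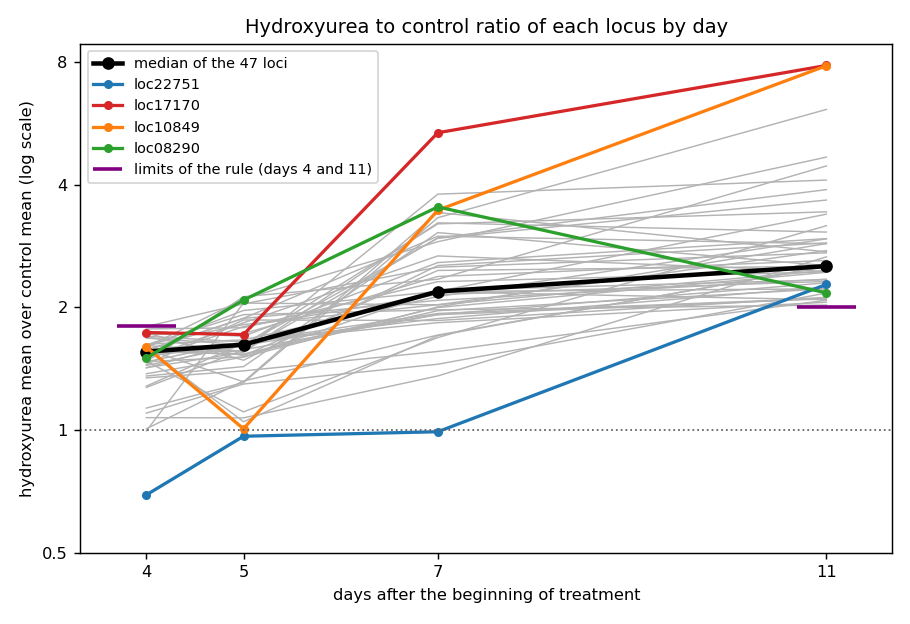
Hydroxyurea mean over control mean of the normalized signal (log axis) by days after the treatment began, with 1 grey line per locus, the median in black and 4 named loci in colour; purple bars mark the limits of 1.8 on day 4 and 2 on day 11. The median holds at 1.56 and 1.62 on days 4 and 5 and then stands at 2.19 and 2.53, whereas loc22751 stays at 0.991 on day 7 and reaches 2.28 on day 11.

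Days 5 and 7 allowed a test, since none of their 12 libraries had been used to choose the members. Counts summed per locus were fitted over all 16116 loci tested, among them all 47 members, with edgeR's quasi-likelihood test and Benjamini-Hochberg adjustment. A locus was called at an adjusted p under 0.05. On day 5, 38 of the 47 members were called higher after hydroxyurea and 0 lower, at a median log2 fold change of 0.72 (range -0.04 to 1.09). Among all loci tested, 15.6% were called higher on that day, with a median log2 fold change of 0.00. On day 7, 45 of the 47 members were called higher and 0 lower, at a median of 1.11 (range -0.05 to 2.36), against 15.7% of all loci called higher and a median of -0.02. A log2 fold change of at least 1, a doubling, was seen in 5 members on day 5 and in 28 on day 7. With library totals as the scale, the ratio of means was at least 2 in 1 member on day 5 and in 26 on day 7, against 5 and 31 with the authors' constants. Every hydroxyurea library exceeded every control library of its day in 33 members on day 5, where 21.6% of all loci did so. On day 7 this held for 46 members, against 23.7% of all loci, and the exception was loc22751. The earlier loci, given for scale, had medians of 1.41 on day 5 and 2.09 on day 7, with 172 and 184 of 185 called higher.

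The members with the highest signal were called on both days. Locus loc14436 had 28797, 30523 and 28341 in hydroxyurea day 5 libraries against 13853, 14993 and 14120.3 in controls, a log2 fold change of 1.04 ± 0.07 (SE; edgeR adjusted p = 1.31e-07). On day 7 it had 31219.9, 33199 and 34721 against 12681, 13898 and 12920.0, a log2 fold change of 1.31 ± 0.07 (edgeR adjusted p = 9.84e-09). Replicates of this locus differed far less than the groups on both days. Locus loc07724 averaged 42576 ± 4172 after hydroxyurea and 19499.6 ± 2197 in controls on day 7 (SD, n = 3 each; log2 fold change 1.11, edgeR adjusted p = 1.62e-06). Locus loc24990 averaged 36804 ± 1609.5 after hydroxyurea and 17680.2 ± 1152 in controls (log2 fold change 1.04, edgeR adjusted p = 2.88e-06). On day 5 the log2 fold changes were 0.72 for loc07724, 1.04 for loc14436 and 0.92 for loc24990. Loci loc10446 and loc10933, next in signal after loc24026, were called on both days too, with day 7 log2 fold changes of 0.85 and 1.00.

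The steepest members on day 7 had a lower signal. Locus loc17170 had 346, 707 and 521 in hydroxyurea day 7 libraries against 104, 108 and 81.0 in controls, a log2 fold change of 2.36 ± 0.25 (edgeR adjusted p = 9.01e-06). Locus loc03136 followed with 555, 547 and 610.0 against 144, 164 and 144, a log2 fold change of 1.90 ± 0.12 (edgeR adjusted p = 7.57e-08). Locus loc08290 had 327, 469 and 430.2 against 91.8, 98.9 and 157, a log2 fold change of 1.81 ± 0.20 (edgeR adjusted p = 1.55e-05). None of these 3 loci overlapped between the groups, which was a condition for naming them here. Locus loc08290 was among the 7 whose ratio peaked on day 7, with 3.53 there and 2.17 on day 11.

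Called on day 7 alone were 7 members, loc07230, loc10849, loc17008, loc23324, loc24212, loc25377 and loc25870. For loc24212 the hydroxyurea libraries held 549.9, 607 and 517 and the control libraries 112, 199.7 and 178 on day 7, a log2 fold change of 1.76 ± 0.25 (edgeR adjusted p = 0.000137). On day 5 it had 315, 390.2 and 292 after hydroxyurea against 179.8, 355 and 224, and control replicate B lay among the treated libraries. Locus loc07230 had 60.6, 121 and 111 on day 7 after hydroxyurea against 26.2, 24.7 and 37.3 in controls (log2 fold change 1.71 ± 0.38, edgeR adjusted p = 0.00328). Its day 5 libraries overlapped, with 29.9, 49.1 and 67.4 after hydroxyurea and 38.0, 22.4 and 51.6 in controls. Being called on 1 day only does not show that the days differ for these loci, and the test of that difference called none of the 7 in the fit reported here. Of the 21 settings tried, 3 called loc24212 (DESeq2 at 1.37, adjusted p = 0.0103) and 1 called loc10849 (edgeR, without control day 7 B, at 3.17, adjusted p = 0.00784). The calls of loc10849 (log2 fold change 1.78 ± 0.60, edgeR adjusted p = 0.0372) and of loc25870 (1.22 ± 0.40, edgeR adjusted p = 0.0311) were lost when single day 7 libraries were left out. For loc10849 this held without control A, control C or any of the 3 hydroxyurea libraries (edgeR adjusted p of 0.0527 to 0.125). For loc25870 it held without control A, control B or hydroxyurea C (edgeR adjusted p of 0.115 to 0.123). The call of loc23324 was lost without any 1 of the 3 controls, hydroxyurea B or hydroxyurea C (edgeR adjusted p of 0.0507 to 0.108). That of loc23653, called on both days, was lost without hydroxyurea A (edgeR adjusted p = 0.0508). Locus loc10849 was the most variable member among controls, and on day 7 it had 248, 318 and 318 after hydroxyurea against 33.8, 192 and 28.8 in controls.

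At the other end, 2 members were called on neither day. Locus loc22751 had 375, 158 and 233 in hydroxyurea day 7 libraries and 332, 215 and 226 in controls, which overlapped (log2 fold change -0.05 ± 0.36, edgeR adjusted p = 0.937). By day 11 it had 602, 394 and 511 after hydroxyurea against 214, 181, 250.3 and 236, with no overlap. Locus loc09632 had 114, 112 and 122 on hydroxyurea day 7 against 87.0, 93.4 and 75.7 in controls, a log2 fold change of 0.38 ± 0.20 (edgeR adjusted p = 0.157). Its hydroxyurea libraries held 157, 239 and 195 on day 11, against 80.3, 90.2, 70.7 and 54.6 in controls. Both loci thus reached their selection limit on day 11 without a call on either earlier day. The smallest difference that was called on day 7 was that of loc16902, with 772, 743 and 779 after hydroxyurea against 558, 521 and 502 in controls (log2 fold change 0.51 ± 0.11, edgeR adjusted p = 0.00293).

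Whether the hydroxyurea effect grew between days 5 and 7 was tested as the difference of the 2 log2 fold changes. A fall in controls between these days adds to that difference, and their median log2 change was -0.17 in members. Treated libraries were not tested between the days by themselves. The median difference was 0.37 in members and -0.03 over all loci. The difference was positive in 44 of the 47 members and in 7455 of all 16116 loci tested. The test called it in 6 members, all larger on day 7, whereas 0.292% of all loci were called in that direction. At an unadjusted p under 0.05 there were 18 members, against 4.86% of all loci. The largest values called were 1.58 ± 0.34 for loc17170 (edgeR adjusted p = 0.0297) and 1.26 ± 0.17 for loc03136 (edgeR adjusted p = 0.000945). Next came 1.06 ± 0.20 for loc02687 (edgeR adjusted p = 0.0123) and 1.03 ± 0.21 for loc15642 (edgeR adjusted p = 0.0208). The other 2 were loc24026, at 0.64, and loc01295, at 0.56. Among the 185 earlier loci 8 were called, and 68 were larger on day 7 at an unadjusted p under 0.05. Their difference was positive in 179, at a median of 0.72, so growth between these days was not particular to the members.

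Locus loc03136 shows what such a step looked like. Its hydroxyurea libraries held 381, 375 and 299 on day 4, 359, 309.6 and 260.0 on day 5, 555, 547 and 610.0 on day 7 and 517, 752 and 636 on day 11. Its controls held 235, 179 and 263 on day 4, 180.5, 222 and 192 on day 5, 144, 164 and 144 on day 7 and 118, 201, 137 and 163 on day 11. The step thus lay between days 5 and 7 in the treated libraries, while the control means of days 7 and 11 lay below those of days 4 and 5. Locus loc02687 had 154, 118 and 157 on hydroxyurea day 5, against 100.3, 93.0 and 107 in controls, and 227, 217 and 253 on hydroxyurea day 7, against 73.9, 73.3 and 81.0. Locus loc24026 had 12423 ± 1353 on hydroxyurea day 5 against 6605 ± 236 in controls, and 16092 ± 880.2 on hydroxyurea day 7 against 5381 ± 326 (SD, n = 3 each). For all 3 the treated mean was higher and the control mean lower on the later day. These calls depended on the fit: of the 6, loc03136 was called in all 21 settings tried, loc24026 in 20, loc02687 in 19, loc15642 in 14, loc17170 in 12 and loc01295 in 9. A fit over all 32 libraries left only loc03136, and 3 members were called without control day 5 C, without control day 7 A or without hydroxyurea day 7 C.

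**Figure D3:**
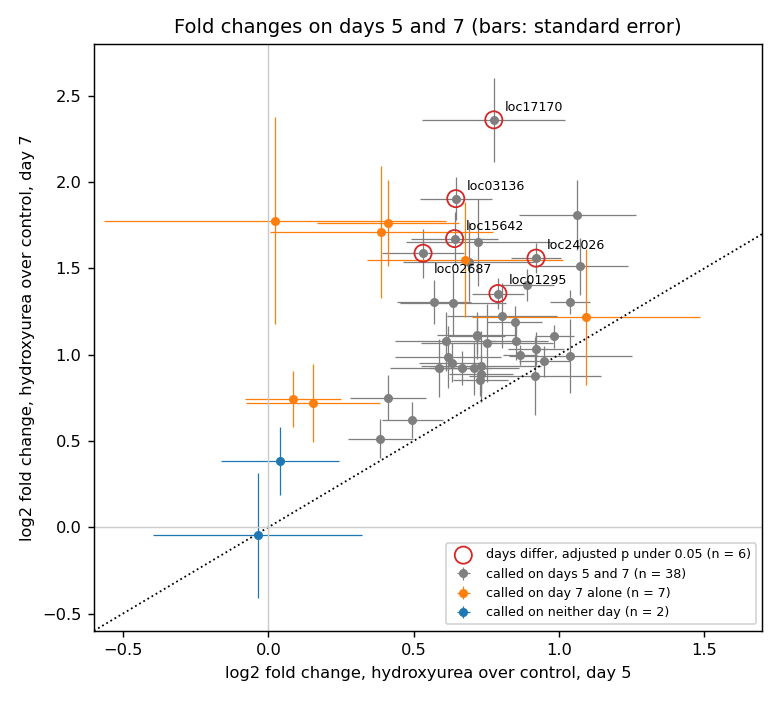
Log2 fold change of hydroxyurea over control on day 7 against that on day 5 for the 47 loci, with standard errors as bars and the dotted line of equal change. Of the 47 points 44 lie above the line; grey points (38) were called on both days, orange (7) on day 7 alone and blue (2) on neither, and red rings mark the 6 loci for which the days differed at an adjusted p under 0.05.

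Untreated polyps had slightly lower values of these loci on later days. In the unused libraries, control day 7 was below control day 5 in 40 of the 47 members and in 7774 of all 16116 loci tested. The median log2 difference was -0.17 for members and 0.01 for all loci. It was -0.30 for the earlier loci, with 159 of 185 lower, so the decline was not particular to this set. No member was called at an adjusted p under 0.05 by edgeR's quasi-likelihood test, and 0.0% of all loci were. At an unadjusted p under 0.05, 9 members were lower, against 2.97% of all loci, and DESeq2 called 1 member, loc12676, at -0.31 (adjusted p = 0.00738). Between days 4 and 11, which the selection did use, control day 11 had a median of 0.841 times the control day 4 signal and was lower in 41 members. This median was 0.772 in the earlier loci and 0.997 over all loci. For hydroxyurea, day 11 over day 4 had a median of 1.49, and 44 members were above 1. The limits on days 4 and 11 favour both a rise after hydroxyurea and a fall in controls. Held against control day 4 in place of control day 11, hydroxyurea day 11 was at least 2 times as high in 29 of the 47, and every late treatment was in 19. The counts between days 4 and 11 were not taken over all loci. Locus loc25870 was the extreme. Its hydroxyurea libraries held 1025, 1189.9 and 645 on day 4 and 544, 910.3 and 911 on day 11. Its control libraries held 513, 579 and 849 on day 4 and 125, 209, 167 and 209 on day 11, so the controls did not overlap between the days while the hydroxyurea libraries did.

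The late treatments chose the members, so their levels are described without a test. The median ratio to control day 11 was 2.53 for hydroxyurea, 2.46 for heat shock without replicate B and 3.58 for colchicine, with ranges of 2.03 to 7.85, 2.01 to 10.0 and 2.03 to 13.2. All late treated libraries the selection used lay above all control day 11 libraries in 43 members, and in 8.47% of all loci, a count that the selection itself favours. The exceptions were 1 library each in loc10849, loc12555, loc16329 and loc24026. In 36 members, and in 5.33% of all loci, they also lay above all 13 control libraries. The heat shock mean lay within 1.5-fold of the hydroxyurea day 11 mean in 42 of the 47 loci. Colchicine was the highest of the 3 in 32 members, heat shock in 8 and hydroxyurea in 7, and colchicine was at least 1.5 times hydroxyurea in 18. These counts between treatments were not taken over all loci. The earlier loci had medians of 4.09 for hydroxyurea, 4.19 for heat shock and 6.18 for colchicine, so the colchicine lead was not particular to the members.

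Scaling bears on the colchicine values. The median of all loci stood at a log2 ratio of -0.10 to control day 11 after colchicine with the authors' constants, at -0.11 with TMM factors and at -0.26 with library totals. Every member remained above control after all 3 treatments under each of these scalings. The selection at 2 times control left little room for another outcome, so this is no separate support. At least a doubling was seen with library totals in 46 members for hydroxyurea, 41 for heat shock and 39 for colchicine. The selection favours these counts too, and they were not taken over all loci. The gap between treatments was widest in 1 library: the median ratio was 2.76, 2.82 and 4.47 in colchicine replicates A, B and C, against 2.23, 2.77 and 2.65 in the hydroxyurea day 11 libraries. Replicate C was the library with the fewest counts, and its part in the colchicine values was not tested.

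Single loci departed from the common order in both directions. Locus loc09632 had 503, 526 and 879 after colchicine, against 157, 239 and 195 on hydroxyurea day 11 and 242, 204, 233 and 235 after heat shock. Locus loc06403 had 4611, 12158 and 13365 after colchicine, against 2977, 3313 and 3630.4 on hydroxyurea day 11 and 2824, 1862, 3272 and 3342 after heat shock. All 3 colchicine libraries exceeded those of the other treatments at both loci, and the colchicine mean was 3.23 times the hydroxyurea mean for loc09632 and 3.04 times for loc06403. Locus loc25870 was highest after heat shock, with 2144, 1079, 996 and 2197, against 544, 910.3 and 911 on hydroxyurea day 11, 258, 589 and 966 after colchicine and 125, 209, 167 and 209 in controls. Locus loc15642 was likewise higher in all heat shock libraries, at 1480.2, 1666, 1445 and 2166, than on hydroxyurea day 11, at 719, 1041 and 1024. Hydroxyurea led in loc16329, which had 1302, 815 and 798 on hydroxyurea day 11, 864, 339.9, 493 and 484 after heat shock and 781, 916 and 19.6 after colchicine, against 343, 401, 147 and 168 in controls. Its colchicine replicate C lay below all controls, so the colchicine mean of that locus rested on the other 2 libraries.

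The members with the largest ratio in their weakest late treatment were loc07230, loc10849, loc17170 and loc00582. Locus loc07230 stood at 75.8, 223 and 192 on hydroxyurea day 11, 204, 105, 112 and 311 after heat shock and 250.3, 254 and 552 after colchicine, against 24.1, 35.0, 19.6 and 28.3 in controls, so its smallest late ratio was 6.12. Locus loc00582 stood at 1102, 1259 and 1465 on hydroxyurea day 11, 1339, 915, 1259 and 1709.8 after heat shock and 934, 778 and 1255 after colchicine, against 238, 326, 283 and 245 in controls, with a smallest ratio of 3.63. Neither locus overlapped with controls in any late library. Locus loc17170 was the least even, with 135, 1203 and 1245 on hydroxyurea day 11, 1038, 327, 161 and 231 after heat shock and 292, 837 and 2745 after colchicine, against 108, 104, 95.8 and 131 in controls. Locus loc10849 had 175, 304 and 360.4 on hydroxyurea day 11, 114, 299, 327 and 231 after heat shock and 228, 57.2 and 188 after colchicine, against 21.4, 0, 57.7 and 63.7 in controls. All late treated libraries of loc17170 exceeded its control day 11 libraries, the closest being hydroxyurea replicate A. Colchicine replicate B of loc10849, in contrast, lay among the controls.

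**Figure D4:**
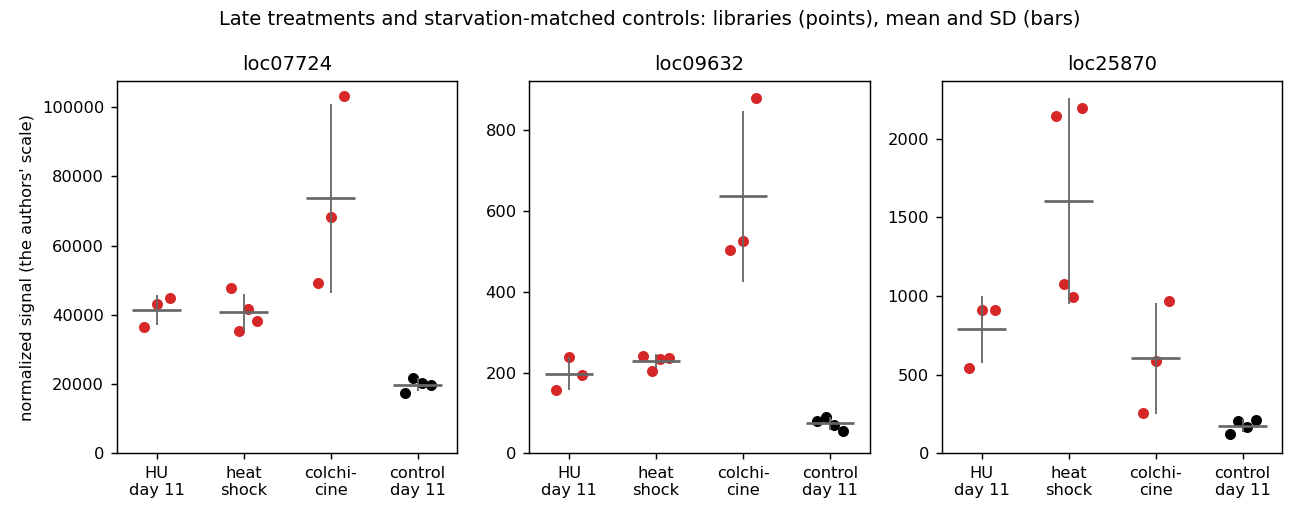
Normalized signal of 3 loci in each library (points) of hydroxyurea (HU) day 11, heat shock, colchicine and control day 11, with the mean and SD as grey bars. Locus loc07724 is above control in every treated library, loc09632 is highest after colchicine (503 to 879, against 54.6 to 90.2 in controls) and loc25870 is highest after heat shock (996 to 2197, against 125 to 209 in controls).

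Heat shock replicate B was left out of the selection and so gives a reading of its own, although its control libraries are those the selection used. It was at least 2 times the control day 11 mean in 33 of the 47 members, where 4.72% of all loci reached that ratio, and its median ratio was 2.33. It exceeded every control day 11 library in 46 members, against 30.1% of all loci. It was below the mean of the other heat shock libraries in 36 members and below each of them in 19. The selection used those other libraries and so favours loci where they are high, and these counts were not taken over all loci. The lowest ratios to that mean were 0.501 for loc07230 and 0.554 for loc16329, and the highest were 1.33 for loc10849 and 1.32 for loc12228. Locus loc12228 had 212, 357, 257 and 338 in heat shock replicates A to D, against 72.3, 76.4, 97.9 and 64.7 in controls.

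Reading single sequences shows what the locus sums are made of. The 47 loci hold 161 sequences, 105 of them in the normalized table, with a median of 3 per locus. A single sequence makes up 12 of the loci (25.5%, against 29.9% of all loci), and in 25 loci 1 sequence held over 90% of the counts. In 5 loci no sequence held 50%. On day 7, 106 sequences of member loci could be tested by themselves with the same edgeR test over 34086 sequences. Of these 60 were called higher after hydroxyurea, where 8.07% of all sequences were, and 2 were called lower, against 13.7% of all sequences. At least 1 sequence was called higher in 43 of the 47 loci and in 13.4% of all loci with a tested sequence. Of the 28 loci with several tested sequences, 4 had all of them called higher, 21 some and 3 none. How reads shared by several sequences were assigned is not given in the sources used here, so these values are less certain than the sums.

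The locus sum hid an early and far larger difference in loc17170. Its sequence seq47790 had a signal of 145, 121 and 236 in hydroxyurea day 4 libraries, against 9.74, 8.33 and 13.9 in controls. On day 7 it had 271, 660.0 and 469.8 after hydroxyurea, against 5.52, 2.75 and 0, which came from 354, 594 and 439 counts in treated libraries and 8, 3 and 0 in controls (log2 fold change 7.18 ± 0.85 (SE), edgeR adjusted p = 0.000129). With so few control counts the fitted size of the change is uncertain, whereas the groups did not overlap. Later it had 70.9, 1145 and 1190.3 on hydroxyurea day 11, 989.9, 281, 118 and 168 after heat shock and 239, 801 and 2717 after colchicine, against 9.37, 9.21, 3.26 and 3.03 in controls. All 19 treated libraries exceeded all 13 controls, and hydroxyurea day 11 replicate A lay far below the other 2 replicates of its group. The other sequences of the locus had a summed signal of 60.2 ± 13.8 on hydroxyurea day 7 and 97.9 ± 10.6 in controls (SD, n = 3 each), without overlap. Among them seq47795 was called lower, at a log2 fold change of -1.14 ± 0.34 (SE; edgeR adjusted p = 0.0379). Sequence seq47790 held a share of the locus counts that was 84.3 percentage points larger on hydroxyurea day 7 than in controls.

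**Figure D5:**
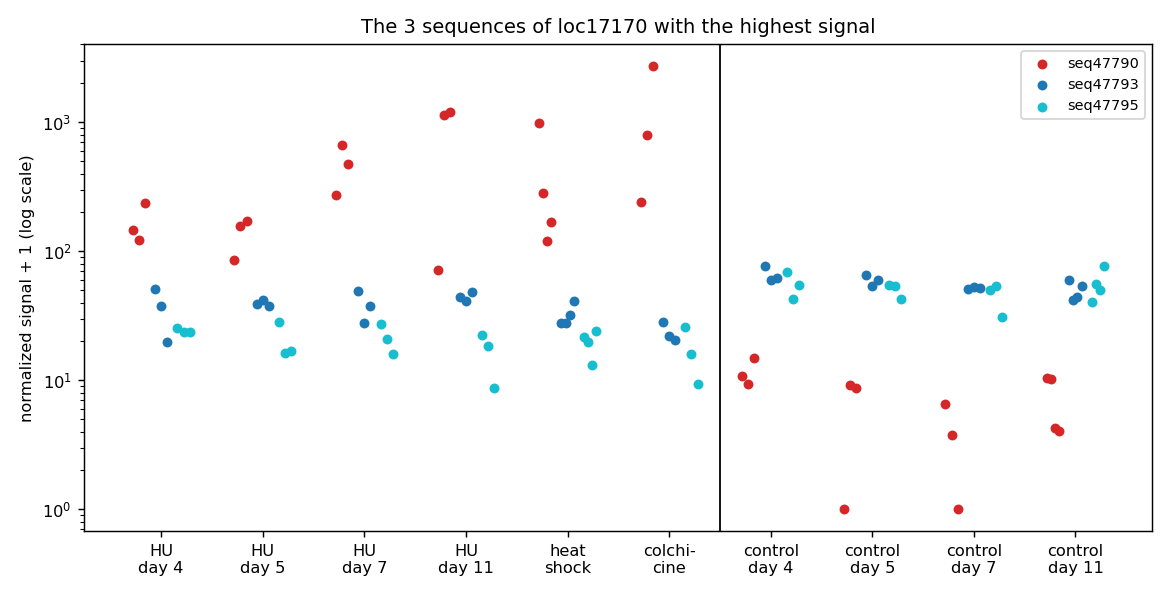
Normalized signal plus 1 (log axis) of the 3 sequences of loc17170 with the highest signal in each of the 32 libraries, by group, with treated groups left of the line and HU standing for hydroxyurea. Before the 1 is added, seq47790 (red) is at 70.9 or more in all treated libraries and at 13.9 or less in all controls from day 4 on. Sequence seq47795 (cyan) runs the other way, at 27.5 or less in treated libraries and 29.9 or more in controls, and seq47793 (blue) overlaps.

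Locus loc10933 held a sequence that went the other way. While its sum averaged 4549 ± 148 after hydroxyurea and 2241 ± 43.6 in controls on day 7 (SD, n = 3 each), seq27443 had 1, 0 and 0 counts in the hydroxyurea libraries, against 199, 116 and 103 in controls (edgeR adjusted p = 2.58e-06, lower). It had 27, 18 and 11 counts on hydroxyurea day 4 against 238, 137 and 161, and 11, 6 and 3 on day 5 against 214, 109 and 127. On hydroxyurea day 11 it had 0, 0 and 0, after heat shock 0, 9, 0 and 0 and after colchicine 0, 2 and 0, against 305, 167, 110 and 153 in control day 11 libraries. Its counts were thus near 0 in the late treated libraries, and the highest late value was that of heat shock replicate B. In loc15642 the difference was spread unevenly: seq42421, seq42422 and seq42423 were called higher on day 7, at log2 fold changes of 2.44, 2.33 and 0.94, and seq42420 was not, at 0.20. The share of the locus counts held by seq42421 was 18.3 percentage points larger on hydroxyurea day 7 than in controls.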

How the data were processed

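PolyA RNA of 32 directional libraries in 10 groups was sequenced. The authors deposited read counts, as whole numbers, for 79774 sequences and a normalized signal for 31594 of them, in which each deposited column equals the count times 1 constant per library (0.669 to 2.80). Cutadapt 1.11, Salmon 0.7.2 and DESeq2 are named in the submitters' processing notes, with no role given. Per the labels' titles, day numbers are 3, 4, 6 and 10 where the sample labels give days 4, 5, 7 and 11, or day 9 for heat shock and colchicine; the label days are used here.

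Members were found on the normalized signal summed per locus, with heat shock replicate B left out of its group mean. The sums of counts per locus entered edgeR 4.0.16, run in R 4.3.3 (quasi-likelihood test, TMM factors of 0.902 to 1.13, filterByExpr with a minimum of 10 counts, 1 mean per group, 8 residual degrees of freedom) in the 12 control and hydroxyurea libraries of days 5 and 7, adjusted over 16116 loci. DESeq2 1.42.0 and limma 3.58.1 (log2 of the signal plus 1) served as alternatives. The script was tested on simulated counts. Library totals were 13.1 to 36.6 M counts, and a count of 0 allows up to 3 counts, counting error only.

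The members, limits and naming rule were chosen with earlier results of these data known. Named loci are those with the highest late signal, the steepest on day 7, those called between days 5 and 7, those with the largest smallest late ratio, those lowest on day 7, the extremes of heat shock B and of the pairs of late treatments, those nearest each limit and those with the largest shift of share between sequences, which makes 23 members. Others are named to complete a small count, after their values were seen. The steepest were taken only among members called higher on day 7 without overlap between the groups. The letters A to D were not taken to pair the libraries.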

Additional observations from a re-analysis of the deposited data

Results flagged for a closer look

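Among the 4 libraries of heat shock and the 4 of control day 11, 3 of 94 member and group pairs had 1 library set far apart from the others by Dixon's ratio, all 3 in heat shock. Chance flags about 1 in 20 groups, which is 4.7 of 94. Locus loc01070 had a signal of 866 in heat shock C, below the other heat shock libraries. Locus loc02687 had 262 in heat shock A and loc20327 had 203 in the same library, both above the other heat shock libraries.

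The hydroxyurea effect differed between days 7 and 5 by edgeR's test of the difference in 6 members, by log2 values of 1.58 for loc17170, 1.26 for loc03136, 1.06 for loc02687, 1.03 for loc15642, 0.64 for loc24026 and 0.56 for loc01295, each larger on day 7.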

How the results depend on the processing

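The count of members higher after hydroxyurea was 28 to 38 on day 5 and 41 to 45 on day 7 over all alternatives. The count called between days 5 and 7 moved most. It was 6 in the reported fit, 1 with all 32 libraries in one fit, 3 without replicate A in any group and 3 to 7 with 1 library left out. Over all loci it was 47 larger and 367 smaller on day 7 in the reported fit, 4 and 105 with all libraries in one fit, and 124 and 517 with DESeq2, while without replicate A 226 were smaller. With 1 library left out it was 23 to 57 larger. With the replicate block the members called were 10, with loc24212 among them at 1.35 (adjusted p = 0.00927), and 164 loci were larger and 605 smaller. Libraries with the same letter deviated together with correlations of -0.03 to 0.14 on day 5 and 0.14 to 0.39 on day 7, and 5 of 6 pairs matched best with their own letter, a hint from the data and not from the design. The block changed no count of members on days 5 and 7. All loci called higher on day 5 numbered 2515, but 1507 with all libraries in one fit.

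Between control days 7 and 5, DESeq2 called 1 member lower and 9 loci higher and 24 lower. The block gave 2 higher and 8 lower, no filter 1 and 3, limma 0 and 3, and the fit without replicate A 1 and 1. The day 7 log2 fold change of loc22751, -0.05 and not called, turned positive in 5 alternatives and was -0.428 to 0.188 with 1 library left out. It was 0.188 without control day 7 A, 0.186 without hydroxyurea day 7 B, 0.00472 without hydroxyurea day 7 C, 0.000377 with all libraries in one fit and 0.000927 with loc01654 left out of the totals, which was chosen after seeing the data. The causes were not tested.

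The rule gave 43 members with heat shock B, 48 with all sequences of a locus, 59 with TMM scaling and 42 to 58 with 1 library left out. In all 19 of these last settings 20 of the 47 were kept. Depth limits the loci with the lowest counts and colchicine B and C most.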
